A study of Mus musculus with 15 samples.

Results

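The genes described here encode the enzymes of the tricarboxylic acid (TCA) cycle, the reactions that feed or drain it, and the malate-aspartate shuttle. The 33 members were taken by gene symbol from a list, and all 33 were found among the 13602 symbols of the count table. All 33 also passed the filter on low counts, which left 11062 genes for testing. Succinate dehydrogenase, which also belongs to the cycle, is outside the list.

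The gastrocnemius, a muscle of the lower hind leg, was profiled in 7 male mice whose skeletal muscle lacks Cpt1b by a tissue-specific knockout, and in 8 male floxed wild-type mice (controls). Cpt1b is the muscle enzyme that hands long-chain fatty acids to carnitine for import into mitochondria. The series text gives 12 to 14 weeks of chow feeding for both groups, whereas the diet field of every sample reads 45% HFD. The age of the mice, the Cre driver and the deleted part of Cpt1b are not given in the sources used here. Each library counts short SAGE tags, each read from 1 site near the 3' end of a transcript, so a level does not scale with transcript length. Each library was taken as a separate mouse, since the number of mice in the labels equals the number of libraries.

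The TCA cycle oxidises acetyl-CoA, made from fatty acids or from pyruvate, and passes the electrons to the respiratory chain as NADH and FADH2. Its intermediates leave for other pathways and are refilled by anaplerotic reactions, for example from pyruvate or from amino acids. The malate-aspartate shuttle carries the electrons of cytosolic NADH into the matrix by moving malate, aspartate and glutamate across the inner membrane. In muscle it links glycolysis to respiration.

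Total counts ran from 9390065 to 19397255 in knockout libraries and from 8334436 to 16238258 in control libraries. Levels are CPM, tag counts scaled to a common library total after TMM adjustment, as edgeR's cpm function gives them. Each log2 fold change is knockout over control and is given ± its standard error, and a gene was called at an edgeR adjusted p under 0.05 over all genes tested. Knockout replicate 4 and control replicate 7, the most deeply sequenced library of each group, lay farthest along the leading principal component of log2 CPM, with scores of 76.2 and 51.2, against -18.7 to 29.7 in the other knockouts and -43.0 to 18.5 in the other controls. The component held 44.6% of the variance, and the other libraries were spread along it, with control replicate 3 next among controls at 18.5. Among the members knockout replicate 4 and control replicate 7 often held the extremes of their groups. Knockout replicate 4 was the highest knockout for 16 members and the lowest for 7. Control replicate 7 was the highest control for 15 members and the lowest for 8. Results are therefore also given without both. Cpt1b itself averaged 3.79 ± 1.64 CPM in knockouts and 7.64 ± 3.17 CPM in controls (SD, n = 7 and n = 8), with a log2 fold change of -1.03 ± 0.31 that did not pass (edgeR adjusted p = 0.103).

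Of the 33 members 1 was called higher in knockout muscle, where 1.67% of all tested genes were, and none was called lower, where 0.497% of all tested genes were. The gene was Slc25a13. At an unadjusted p under 0.05 by edgeR 13 members were higher and 0 lower, beside 7.65% and 5.92% of all tested genes, and DESeq2 called 7 higher and 0 lower (2.73% and 1.44% of all tested genes). A positive fold change was found in 26 members (78.8%) and in 50.6% of all tested genes. The median log2 fold change was 0.27 over the members and 0.00 over all tested genes. The members together took 1.68% to 1.91% of all counts in knockout libraries, with a median of 1.84%, and 1.46% to 1.81% in control libraries, with a median of 1.60%. These ranges overlap. Without control replicate 7 and knockout replicate 4 the number called was 8 higher and none lower, where 2.32% and 1.35% of all tested genes were called, and the median log2 fold change was 0.28. Most of that gain came from 1 library: without control replicate 7 alone, 10 members were called higher and none lower (2.84% and 1.41% of all tested genes). A fit with a surrogate variable also called 10 higher and none lower (3.12% and 1.25%), and scaling by library size alone called 2 higher and none lower (1.67% and 0.416%).

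**Figure D1:**
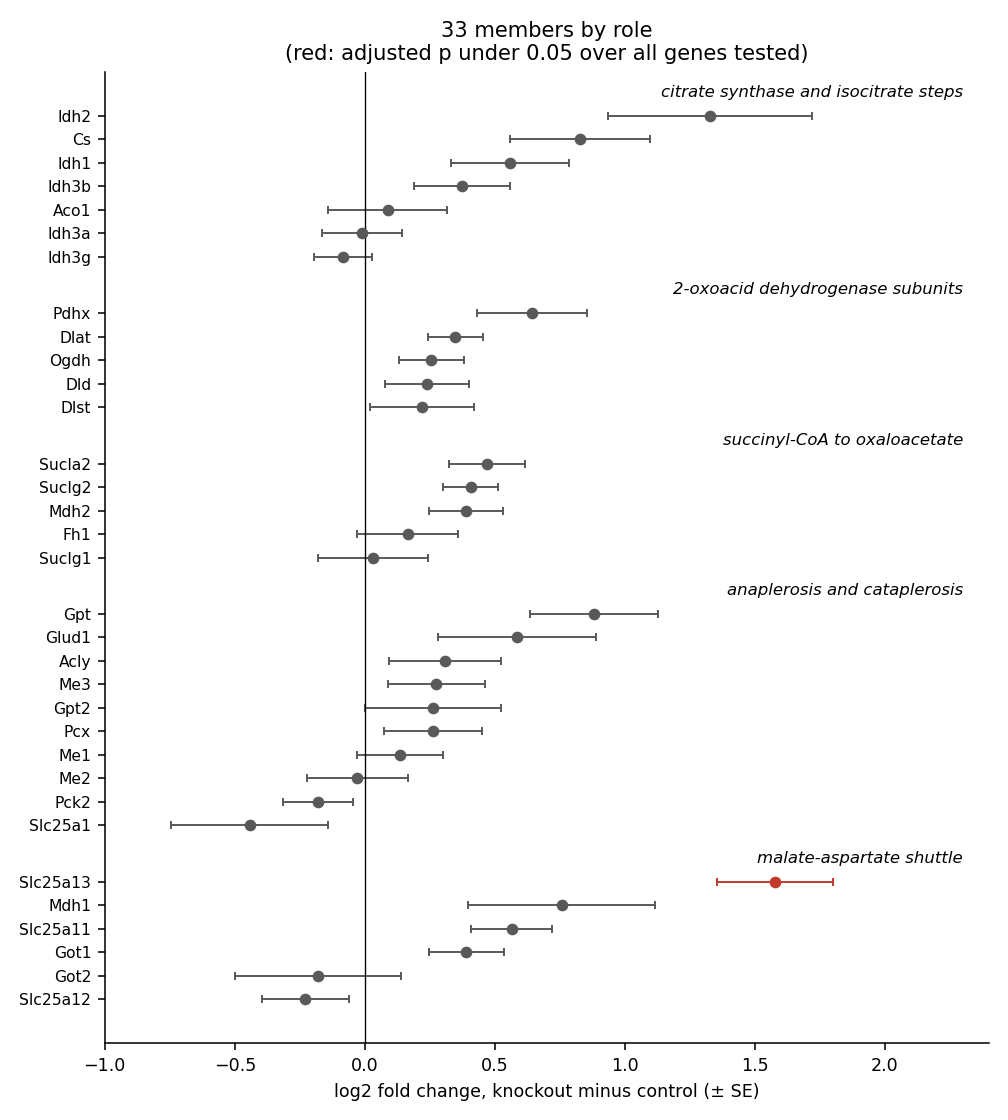
Log2 fold change of each of the 33 members (x axis, knockout minus control, bars show SE), grouped by role down the page, with red for an adjusted p under 0.05 over all genes tested. Slc25a13 is the only red point, at 1.58, and 26 of the 33 points lie above 0.

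The called gene, Slc25a13, encodes 1 of the carriers of the malate-aspartate shuttle. Aspartate leaves the matrix in exchange for glutamate through an aspartate-glutamate carrier, which exists in 2 forms, Slc25a12 (aralar) and Slc25a13 (citrin). Aralar is the form known from muscle and brain, and citrin is the main form of liver. Another carrier of the shuttle, Slc25a11, exchanges malate for 2-oxoglutarate. A predicted tag of each of these 3 genes is given to show the kind of sequence that was counted, read from GENCODE M21 transcripts (GRCm38) as the 27 bases from the CATG nearest the 3' end, with that site in capitals. All 3 lie in the 3' UTR on the minus strand, at chr6:6041246-6041272 for Slc25a13, chr2:71271067-71271093 for Slc25a12 and chr11:70644734-70644760 for Slc25a11. None of the 3 tags was found in a transcript of another gene. The coding transcripts of Slc25a11 give 3 different tags, of which the principal transcript's is printed, and those of the other 2 genes give 1 each.
Slc25a13: CATGgtcagaggcttgtgtgtttgtga
Slc25a12: CATGtcttaataaaagtttgtgctcac
Slc25a11: CATGgtcccaggactagtgtgccaggc

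Slc25a13 (chromosome 6, 6041218 to 6217173) ran from 8.62 to 19.8 CPM in knockouts with a median of 17.1, against 2.92 to 7.50 CPM in controls with a median of 4.93. The lowest knockout value exceeded the highest control value, a separation seen upward in 0.967% of all tested genes and in no other member. Slc25a13 rose in knockout muscle, by 1.58 ± 0.22 on the log2 scale (edgeR adjusted p = 0.00034, 7 of 7 knockouts above the control median). The lowest value in each group belonged to knockout replicate 4 and to control replicate 7, and without both the log2 fold change was 1.58 ± 0.19 (adjusted p = 4.37e-05). Only 119 tags per library, on average, lie behind this level, with 138 to 235 in knockouts and 37 to 78 in controls.

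Slc25a12 (chromosome 2, 71271063 to 71367749) ran from 726 to 1625 CPM in knockouts with a median of 1365, against 1011 to 1808 CPM in controls with a median of 1476. The ranges overlapped widely, and only 1 of 7 knockouts lay above the control median. Its log2 fold change was -0.23 ± 0.17 and did not pass (edgeR adjusted p = 0.561).

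The log2 ratio of Slc25a12 to Slc25a13 counts within a library needs no scaling between libraries. It averaged 6.40 ± 0.21 in knockouts and 8.22 ± 0.36 in controls (SD, n = 7 and n = 8). All 7 knockout ratios, from 6.15 to 6.81, lay below all 8 control ratios, from 7.70 to 8.75. The difference was -1.82 by a two-sided exact permutation test over 6435 splits (p = 0.000155, the smallest these splits can give, and adjusted p = 0.000777 over the 5 ratios compared). Without control replicate 7 and knockout replicate 4 it was -1.79 (exact permutation adjusted p = 0.00291). Slc25a13 supplied 0.883% to 1.39% of the tags of both carriers in knockouts, with a median of 1.21%, against 0.229% to 0.475% in controls, with a median of 0.310%. In both groups Slc25a12 thus held nearly all aspartate-glutamate carrier tags. The summed level of both carriers ran from 735 to 1645 CPM in knockouts and from 1014 to 1813 CPM in controls.

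**Figure D2:**
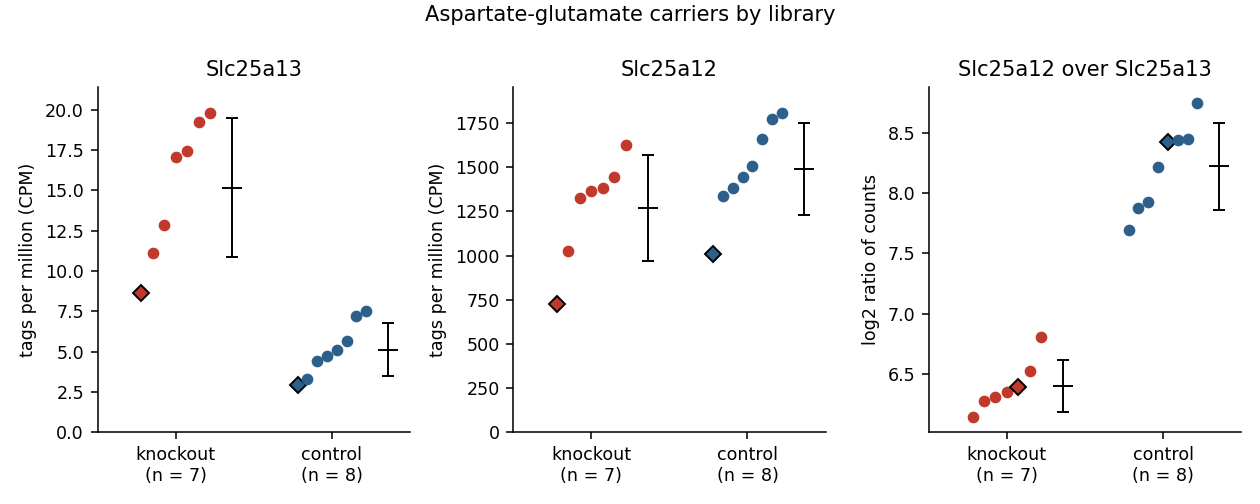
Level of Slc25a13 and Slc25a12 in CPM and the log2 ratio of their counts (y axes) in the 7 knockout and 8 control libraries, each point a library, with the mean and SD beside them and black-edged diamonds for knockout replicate 4 and control replicate 7. The Slc25a13 levels and the ratios do not overlap between the groups, and the Slc25a12 levels do.

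The other shuttle genes had values that did not pass over all genes tested. Slc25a11 ran from 135 to 237 CPM in knockouts with a median of 185, against 98.0 to 179 CPM in controls with a median of 118. All 7 knockouts lay above the control median and 4 above every control, with a log2 fold change of 0.56 ± 0.16 (edgeR adjusted p = 0.0749). It passed without control replicate 7 (adjusted p = 0.0159), without knockout replicate 1 (adjusted p = 0.0457) and without control replicate 7 and knockout replicate 4 (adjusted p = 0.0267). Fits on all libraries also called Slc25a11, by DESeq2 (0.55, adjusted p = 0.0196) and with a surrogate variable (0.40, adjusted p = 0.0100). Mdh1, the cytosolic malate dehydrogenase, ran from 525.9 to 2073 CPM in knockouts with a median of 1061, against 345 to 1560 CPM in controls with a median of 413. The highest value of each group was far above the rest and came from knockout replicate 4 and control replicate 7. Its log2 fold change was 0.76 ± 0.36 (edgeR adjusted p = 0.365), and 1.13 without control replicate 7, where it passed (adjusted p = 0.0332). Without knockout replicate 4 it was 0.48 (adjusted p = 0.650), and without both libraries 0.84, just outside the threshold (adjusted p = 0.0517). Over the 23 alternatives it ran from 0.38 to 1.13. Got1, the cytosolic aspartate aminotransferase, ran from 1281 to 1906 CPM in knockouts with a median of 1464, against 936 to 1573 CPM in controls with a median of 1108, with a log2 fold change of 0.39 ± 0.14 (edgeR adjusted p = 0.220).

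Got2, the mitochondrial aspartate aminotransferase, varied more between mice of a group than between the groups. It ran from 1627 to 6617 CPM in knockouts with a median of 3809, against 1663 to 7384 CPM in controls with a median of 4586, and its log2 fold change was -0.18 ± 0.32 (edgeR adjusted p = 0.810). The lowest Got2 level of each group was again in knockout replicate 4 and control replicate 7. Mdh2, the mitochondrial malate dehydrogenase, was also lowest among controls in control replicate 7, at 475 CPM, where Mdh1 was highest. Mdh2 ran from 916 to 1242 CPM in knockouts with a median of 1028, against 475 to 943 CPM in controls with a median of 848, and its log2 fold change was 0.39 ± 0.14 (edgeR adjusted p = 0.218). It passed in 2 of 23 alternatives, the fit scaled by library size alone (adjusted p = 0.0456) and that with a surrogate variable (log2 0.52, adjusted p = 0.00376).

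The mitochondrial and cytosolic forms of the shuttle enzymes therefore stood in very different proportion from mouse to mouse. The log2 ratio of Mdh2 to Mdh1 ran from -1.17 to 1.23 in knockouts, with a mean of 0.21 ± 0.83, and from -1.72 to 1.40 in controls, with a mean of 0.64 ± 1.07 (SD, n = 7 and n = 8). The ratio of Got2 to Got1 ran from -0.04 to 2.35 in knockouts, with a mean of 1.25 ± 0.90, and from 0.12 to 2.79 in controls, with a mean of 1.83 ± 0.98. Neither difference, -0.43 and -0.58, was larger than the spread between libraries (exact permutation p = 0.410 and 0.251, adjusted p = 0.512 and 0.418 over the 5 ratios). Knockout replicate 4 and control replicate 7 had the lowest value of their group in both ratios, and control replicate 3 the next lowest among controls.

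At the entry to the cycle, Cs, the citrate synthase that joins acetyl-CoA to oxaloacetate, ran from 785 to 1996 CPM in knockouts with a median of 1477, against 389 to 1512 CPM in controls with a median of 641. All 7 knockouts lay above the control median and 5 of 8 controls lay below every knockout. The log2 fold change was 0.83 ± 0.27 (edgeR adjusted p = 0.148). It passed without control replicate 7, which held the highest control value (log2 1.04, adjusted p = 0.0172), and without both libraries that stood apart (0.91 ± 0.22, adjusted p = 0.0298). The fit with a surrogate variable also called Cs, at a smaller log2 fold change of 0.55 (adjusted p = 0.00584).

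The NADP-dependent isocitrate dehydrogenases make NADPH, Idh2 in the matrix and Idh1 in the cytosol and peroxisomes, while Idh3 is the NAD-dependent enzyme of the cycle. Idh2 ran from 83.4 to 357 CPM in knockouts with a median of 133, against 27.3 to 137 CPM in controls with a median of 36.6. Knockout replicate 4 held the highest value, and 6 of 8 controls lay below every knockout, the exceptions being control replicates 3 and 7. The log2 fold change of 1.33 ± 0.39 was the second largest among the members and did not pass (edgeR adjusted p = 0.0991). It was 1.63 without control replicate 3 and 1.51 without control replicate 7, where it passed (adjusted p = 0.0246 and 0.0349), and 1.11 without control replicate 7 and knockout replicate 4, where it did not (adjusted p = 0.0722). On all libraries Idh2 passed by DESeq2 (1.32, adjusted p = 0.0224). With a surrogate variable its log2 fold change was smaller, 0.85, and passed (adjusted p = 0.00154).

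Idh1 ran from 22.8 to 53.4 CPM in knockouts with a median of 28.6, against 12.8 to 40.4 CPM in controls with a median of 20.9. Apart from control replicate 7, all controls lay below every knockout. The log2 fold change was 0.56 ± 0.23 (edgeR adjusted p = 0.279), and 0.75 without control replicate 7 (adjusted p = 0.0349). Without knockout replicate 4 as well it was 0.57 and did not pass (adjusted p = 0.0517). The log2 ratio of Idh2 to Idh1 averaged 2.06 ± 0.43 in knockouts and 1.23 ± 0.69 in controls (SD, n = 7 and n = 8), a difference of 0.83 (exact permutation p = 0.0185, adjusted p = 0.0462 over the 5 ratios). This call did not hold without control replicate 7 and knockout replicate 4 (difference 0.74, adjusted p = 0.111), nor in 13 of the 15 fits that left out 1 library.

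No difference was detected for the catalytic subunit of the NAD-dependent enzyme. Idh3a ran from 2424 to 4486 CPM in knockouts with a median of 4241, against 2692 to 4965 CPM in controls with a median of 4093, with a log2 fold change of -0.01 ± 0.15 (edgeR adjusted p = 0.978). That the test was missed does not show equal levels. The regulatory subunits had log2 fold changes of 0.37 ± 0.19 for Idh3b and -0.08 ± 0.11 for Idh3g, and Aco1, the cytosolic aconitase that is also an iron sensor, had 0.09 ± 0.23. None of these 3 passed (edgeR adjusted p = 0.390, 0.736 and 0.871).

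**Figure D3:**
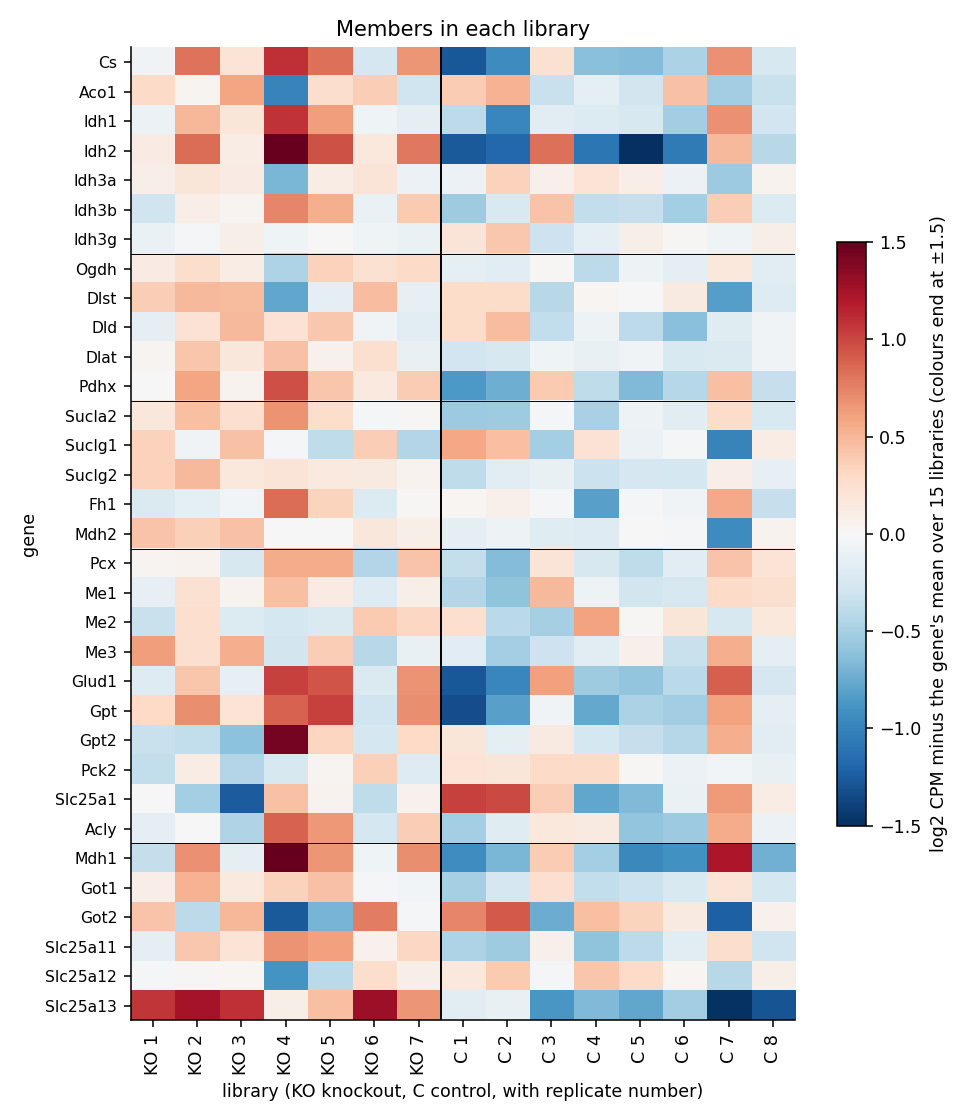
Log2 CPM of each member (rows, in order of role) in each library (columns, 7 knockouts then 8 controls) as the difference from the gene's mean over 15 libraries, red for above and blue for below. Knockout replicate 4 and control replicate 7 share a pattern of high Cs, Idh2, Glud1 and Mdh1 and low Dlst and Got2 beside most other libraries of their groups. Control replicate 3 goes the same way in these genes and has the highest Idh2 of the controls.

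The 2-oxoacid dehydrogenase complexes release carbon dioxide and pass acyl groups to coenzyme A, pyruvate dehydrogenase before the cycle and 2-oxoglutarate dehydrogenase within it. All 5 members of this kind had positive fold changes, with a median log2 value of 0.25. The E1 subunits of pyruvate dehydrogenase, which are outside the list, went both ways. Pdha1 had a log2 fold change of 0.54 ± 0.16 and Pdhb -0.12 ± 0.26 (edgeR adjusted p = 0.092 and 0.852). Pdhx, which tethers the shared E3 subunit to pyruvate dehydrogenase, ran from 89.2 to 173 CPM in knockouts with a median of 115, against 48.8 to 121 CPM in controls with a median of 66.8. The highest 2 controls overlapped with the knockouts and the other 6 lay below them all. Its log2 fold change was 0.64 ± 0.21 (edgeR adjusted p = 0.148), and 0.78 without control replicate 7 (adjusted p = 0.0295). In the fit with a surrogate variable it was smaller, 0.43, and also passed (adjusted p = 0.00883).

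Dlat, the acetyl-transferring E2 core of pyruvate dehydrogenase, ran from 48.3 to 71.2 CPM in knockouts with a median of 58.8, against 42.7 to 50.4 CPM in controls with a median of 46.7. It had the narrowest spread of the 5 genes among controls, and 6 of 7 knockouts lay above every control. The log2 fold change of 0.35 ± 0.11 did not pass by edgeR (adjusted p = 0.112) and passed by DESeq2 (adjusted p = 0.0307). Ogdh and Dlst, the E1 and E2 subunits of 2-oxoglutarate dehydrogenase, had log2 fold changes of 0.25 ± 0.12 and 0.22 ± 0.20, and Dld, the E3 subunit that both complexes share, had 0.24 ± 0.16 (edgeR adjusted p = 0.384, 0.635 and 0.530). Dlst passed in 1 of 23 alternatives, the fit with a surrogate variable (log2 0.46, adjusted p = 0.00393). Knockout replicate 4 held the lowest knockout value of Ogdh, at 113 CPM against 168 to 198 CPM in the other 6. Only it and control replicate 7 made the Ogdh groups overlap, so their separation without both follows from that choice. Without both the gene passed (log2 0.37 ± 0.10, adjusted p = 0.0470).

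Succinyl-CoA ligase makes ATP or GTP in the cycle, depending on whether the beta subunit is Sucla2 or Suclg2, with Suclg1 as the shared alpha subunit. Suclg2 ran from 121 to 163 CPM in knockouts with a median of 130, against 89.3 to 125 CPM in controls with a median of 101. Apart from the highest control, replicate 7, all controls lay below every knockout, and the log2 fold change of 0.41 ± 0.11 lay just outside the threshold (edgeR adjusted p = 0.0529). It was 0.45 without control replicate 7 (adjusted p = 0.0164). With all libraries kept, it passed by DESeq2 (0.39, adjusted p = 0.00225) and with a surrogate variable (0.37, adjusted p = 0.0164). Sucla2 ran from 229 to 373 CPM in knockouts with a median of 278, against 160 to 283 CPM in controls with a median of 204. Its log2 fold change was 0.47 ± 0.15 (edgeR adjusted p = 0.120), and 0.55 without control replicate 7 (adjusted p = 0.0276). Sucla2 also passed on all libraries by DESeq2 (0.46, adjusted p = 0.0461) and with a surrogate variable (0.34, adjusted p = 0.0462).

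The difference in the log2 ratio of Sucla2 to Suclg2 was smaller than the spread between libraries, with 1.04 ± 0.22 in knockouts and 0.97 ± 0.19 in controls (SD, n = 7 and n = 8, exact permutation p = 0.531, adjusted p = 0.531 over the 5 ratios). The shared subunit Suclg1 ran from 269 to 491 CPM in knockouts with a median of 358, against 181 to 545 CPM in controls with a median of 376, and its log2 fold change was 0.03 ± 0.21 (edgeR adjusted p = 0.954). Fh1, the fumarase, had a log2 fold change of 0.16 ± 0.19 (edgeR adjusted p = 0.709).

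**Figure D4:**
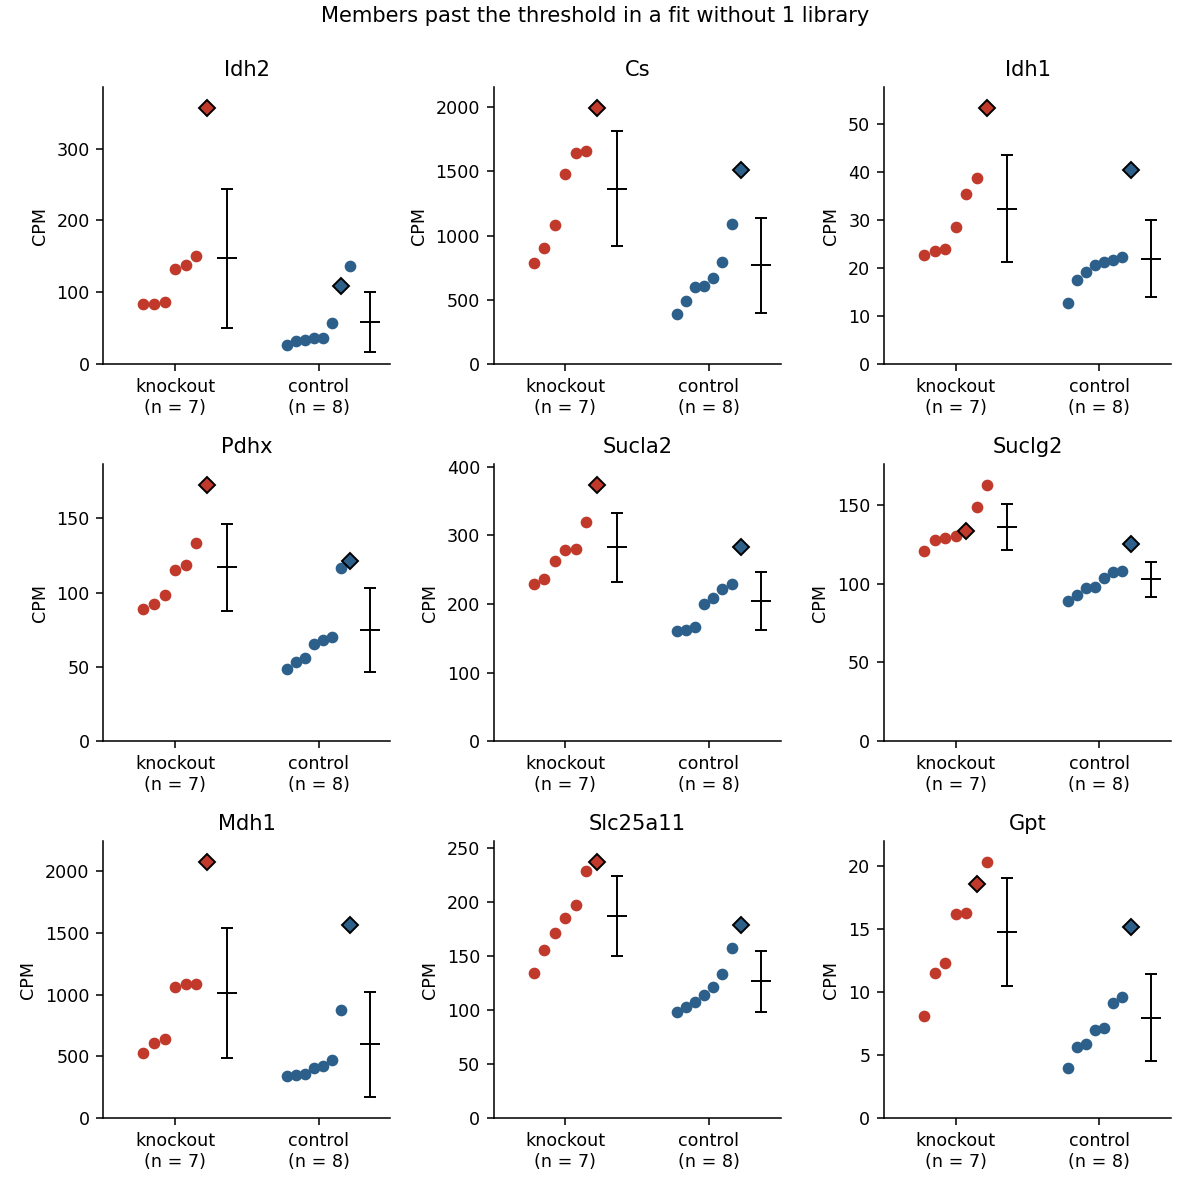
CPM (y axes, from 0) of the 9 members besides Slc25a13 that passed the threshold in at least 1 fit without 1 library, in 7 knockout and 8 control libraries, with the mean and SD beside the points and black-edged diamonds for knockout replicate 4 and control replicate 7. In all 9 genes the control diamond lies at or near the top of its group, and in 8 of them, all but Idh2, it is the highest control. All 9 passed without control replicate 7, so its high place follows in part from how the genes were chosen.

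Among the genes that feed the cycle from amino acids, Gpt, the cytosolic alanine aminotransferase, ran from 8.13 to 20.3 CPM in knockouts with a median of 16.2, against 3.97 to 15.2 CPM in controls with a median of 7.07. All 7 knockouts lay above the control median and the highest control was replicate 7. The log2 fold change of 0.88 ± 0.25 did not pass (edgeR adjusted p = 0.0795), and it passed without control replicate 7 (log2 1.09, adjusted p = 0.00679) and without knockout replicate 6 (log2 0.98, adjusted p = 0.0388). Gpt also passed on all libraries by DESeq2 (log2 0.87, adjusted p = 0.0217). With a surrogate variable its log2 fold change was smaller, 0.65, and passed (adjusted p = 0.0091). Gpt2, the mitochondrial alanine aminotransferase, ran from 38.8 to 160 CPM in knockouts with a median of 49.4, against 44.0 to 86.3 CPM in controls with a median of 53.7. Its log2 fold change of 0.26 ± 0.26 (edgeR adjusted p = 0.661) rested on knockout replicate 4, without which it was -0.09 (adjusted p = 0.888).

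Glud1, the glutamate dehydrogenase that yields 2-oxoglutarate, ran from 126 to 296 CPM in knockouts with a median of 195, against 60.5 to 271 CPM in controls with a median of 106. All 7 knockouts lay above the control median, and the log2 fold change was 0.59 ± 0.30 (edgeR adjusted p = 0.413). The pyruvate carboxylase Pcx, which makes oxaloacetate, had a log2 fold change of 0.26 ± 0.19 (edgeR adjusted p = 0.559). The malic enzymes interconvert malate and pyruvate. Their log2 fold changes were 0.14 ± 0.16 for the cytosolic Me1, -0.03 ± 0.19 for the mitochondrial Me2 and 0.27 ± 0.19 for the mitochondrial Me3, and none passed (edgeR adjusted p = 0.718, 0.954 and 0.533). Me1 was the most abundant of the 3 by tag count, at 449 to 699 CPM in knockouts and 338 to 717 CPM in controls, against no more than 15.2 CPM in knockouts and 14.3 CPM in controls for either mitochondrial form.

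The exit of citrate to the cytosol runs through the carrier Slc25a1 and ATP citrate lyase, Acly, which returns acetyl-CoA for lipid synthesis. Acly ran from 21.4 to 54.1 CPM in knockouts with a median of 29.5, against 19.5 to 43.2 CPM in controls with a median of 26.8, with a log2 fold change of 0.31 ± 0.22 (edgeR adjusted p = 0.546). Slc25a1 had the fewest tags of all members, a mean of 16.3 per library, and was listed at 0.489 to 1.57 CPM in knockouts and 0.677 to 2.36 CPM in controls (log2 -0.44 ± 0.30, edgeR adjusted p = 0.531).

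Pck2, the mitochondrial phosphoenolpyruvate carboxykinase, ran from 14.3 to 24.7 CPM in knockouts with a median of 16.9, against 17.9 to 23.6 CPM in controls with a median of 20.8 (log2 -0.18 ± 0.13, edgeR adjusted p = 0.565). Its tag is shown because it is the exception among the members: the predicted tag of its principal transcript, at chr14:55551137-55551163 (GRCm38, plus strand, 3' UTR), was also found in transcripts of 27 other genes, whereas those of the other 32 members were found in no other gene. In 18 of those 27 genes it lay at the CATG nearest the 3' end of a transcript. The 6 coding transcripts of Pck2 give 5 different tags, and this one comes from 1 of them.
Pck2: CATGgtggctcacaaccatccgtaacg
The level of Pck2 is therefore uncertain, since tags of several genes may be counted under it or left out.

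Other genes of the pathway came from a list of 31, of which 30 were in the table and 28 were tested. Of these 28 tested genes 3 rose and none fell, where 1.67% and 0.497% of all tested genes did, and the median log2 fold change was 0.13. The number that rose was 1 or 2 in 18 of 23 alternative fits and 4 to 6 in the other 5. Slc25a22, a mitochondrial glutamate carrier, ran from 29.5 to 72.7 CPM in knockouts with a median of 39.4, against 7.70 to 17.6 CPM in controls with a median of 14.8. The groups did not overlap, and the log2 fold change was 1.61 ± 0.20 (edgeR adjusted p = 1e-04), a call that held in all 23 alternatives. The other 2 that rose were subunits of succinate dehydrogenase, which oxidises succinate to fumarate. Sdhb had a log2 fold change of 0.82 ± 0.18 (edgeR adjusted p = 0.0199), which passed in 19 of the 23 alternatives. Sdhd had 0.53 ± 0.14 (edgeR adjusted p = 0.0483) and passed in only 6 of the 23, with adjusted p up to 0.304. Sdha did not overlap between the groups and lay just outside the threshold (edgeR adjusted p = 0.0527). Sdhc, the remaining subunit, had a log2 fold change of -0.21 ± 0.16 (edgeR adjusted p = 0.576), with 1 of 7 knockouts above the control median.

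Muscle markers made up 40470 to 67820 summed CPM in knockouts and 43330 to 62140 in controls over 6 genes, with Mb called higher and Tnnt3 called lower. Slow-fibre markers summed to 1625 to 3437 CPM in knockouts and 999 to 3388 in controls, with 0 of 6 called, and control replicate 7 held the lowest sum. Myl3 made up most of each sum, at 1311 to 2768 CPM in knockouts and 799 to 2853 in controls (log2 0.06). The median log2 value of the list was 0.49. Myl2, Tnni1, Tnnc1, Tnnt1 and Myh7 had 0.82, 0.72, 0.68, 0.30 and 0.16 (edgeR adjusted p = 0.18, 0.11, 0.23, 0.59 and 0.83). Adipocyte markers, all 8 of which were measured, summed to 929 to 1683 CPM in knockouts and 887 to 1184 in controls, with knockout replicate 4 the highest and Lep called lower. Fibroblast markers summed to 1231 to 3083 CPM in knockouts, with a median of 1784, and 2176 to 3848 CPM in controls, with a median of 3468, and 0 of 6 genes were called. The collagen gene Col1a1 had a log2 value of -1.03 ± 0.30 (edgeR adjusted p = 0.0863), with no knockout above the control median, while Pdgfra and Lum had 0.03 and 0.16. Endothelial markers summed to 191 to 291 CPM in knockouts and 201 to 317 in controls, again with 0 called. Macrophage and erythroid markers stayed under 100 summed CPM in every library, with Cd68, Adgre1, Hbb-bs and Hbb-bt not among the symbols analysed here. The part of these cell types in the members' levels was not tested, and in bulk tissue more cells of a type and more RNA per cell cannot be told apart.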

How the data were processed

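SOLiD SAGE libraries were made from 500 ng of Trizol-extracted total RNA, per the labels' protocols. The authors deposited raw tag counts per gene symbol (13602 symbols) and a second table of normalized signal values, which the raw counts give after division by a size factor for each library, to within a relative deviation of 5.1e-10. Per the submitters' processing notes DESeq2 was used, with builds mm10 and GRCm38.p1; an aligner and a tag-to-gene rule are not given in the sources used here. Of the table's lines, 360 are empty and hold 0 counts.

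Counts were tested with edgeR 4.0.16 (R 4.3.3) by the quasi-likelihood test with robust dispersion, TMM scaling, filterByExpr with a minimum count of 10 and Benjamini-Hochberg adjustment over 11062 genes. The standard error of a fold change was derived as its absolute log2 value divided by the square root of the test's F statistic. Ratios used a pseudocount of 0.5. DESeq2 1.42.0 and sva 3.50.0 gave alternatives, and the fit was tested on simulated data. Positions and predicted tags came from GENCODE M21. The CATG site is the usual one of SAGE and is not named in the labels.

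Members, lists and alternatives were chosen with earlier results of these data known. Named in full were members called in the fit on all libraries or in any fit without 1 library, members with a mean under 20 counts, and the member with the smallest p of each role; further members are given more briefly. Same-numbered replicates did not regularly deviate together (3 of 7 pairs above a correlation of 0.1), so the numbers were not taken to pair mice. No 2 libraries of a group agreed within sampling noise (smallest chi-square per degree of freedom 9.32).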

Additional observations from a re-analysis of the deposited data

Results flagged for a closer look

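A library stood far from the rest of its group in 9 of 76 sets of values checked (11.8%). All 9 came from knockout replicate 4 or control replicate 7. A rate of about 1 in 20 holds for independent, normally distributed sets. These sets share the same libraries, so 11.8% does not measure an excess over chance. Knockout replicate 4 was far above the other knockouts for Idh2 (357 CPM, next 150.0), Mdh1 (2073 CPM, next 1088) and Gpt2 (160 CPM, next 74.1), and far below them for Idh3a (2424 CPM, next 3681) and Ogdh (113 CPM, next 168). Control replicate 7 was far above the other controls for Idh1 (40.4 CPM, next 22.4), Mdh1 (1560 CPM, next 878) and Me3 (14.3 CPM, next 10.4), and far below them for Mdh2 (475 CPM, next 799).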

How the results depend on the processing

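Slc25a13 stayed higher in knockouts and past the threshold in all 23 alternatives (log2 1.49 to 1.82, adjusted p 8.48e-09 to 0.00244), and no member was called lower in any. A positive fold change was found in 25 to 28 members, and the median over the members stayed between 0.25 and 0.35. Of the 33 members 25 kept their direction in all 23 alternatives. The number of members called higher was 2 with library size alone, 7 with DESeq2, 10 with the surrogate variable, 8 without control replicate 7 and knockout replicate 4, and 1 to 10 when each library was left out (10 without control replicate 7). Over all genes the calls numbered 240, and 461 with DESeq2, 483 with the surrogate variable, 403 without both libraries and 161 to 465 with 1 left out. The other pathway genes called higher numbered 3, and 2 with RLE scaling, library size alone, the authors' size factors or no filter, 5 with DESeq2, the surrogate variable and without both libraries, and 1 to 6 with 1 left out, and 1 was called lower with DESeq2 and with the surrogate variable.

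The replicate numbers were not taken to pair the mice. Correlations of same-numbered libraries' deviations ran from -0.45 to 0.31, and 1 of 7 knockouts correlated best with its own number. These values cannot show that the mice were unpaired. With the replicate block 117 genes were called in all, 1 member and 1 other pathway gene, both higher, and the log2 fold change of Me2 was 0.0023. The Slc25a12 to Slc25a13 ratio then differed by -1.75 (exact permutation p = 0.0156, the smallest 7 pairs allow, adjusted p = 0.0781) and Idh2 to Idh1 by 0.86 (adjusted p = 0.156).

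With 1 library left out, the Slc25a12 to Slc25a13 difference stayed between -1.90 and -1.75, and Idh2 to Idh1 between 0.70 and 1.02 (adjusted p 0.00146 to 0.0999), with 0.74 without both. Small log2 fold changes changed sign. Library size alone gave 0.048 for Idh3a and 0.031 for Me2. The surrogate variable gave 0.12 for Idh3a, -0.033 for Fh1, -0.0093 for Me1, 0.060 for Me2, 0.27 for Got2 and -0.14 for Gpt2. Without both libraries Idh3a was 0.0038 and Suclg1 -0.065. With 1 library left out, Aco1 ran from -0.013 to 0.22, Idh3a from -0.076 to 0.079, Suclg1 from -0.071 to 0.13, Me2 from -0.095 to 0.068, Gpt2 from -0.092 to 0.37, and the Sucla2 to Suclg2 ratio difference from -0.0023 to 0.11. The cause of these shifts was not tested. Depth limits Slc25a1 and Me2 most, with 16.3 and 35.7 tags per library.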
